A study of Homo sapiens with 6 samples.

Results

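NT5DC2, B9D1, FUOM, SAMD11 and GPR137 each carried a Type I m5C site that was listed in all 6 fractions of a polysome gradient from HEK293T cells. These 5 sites were taken from 542 listed sites in 501 genes, of which 352 were Type I, that is, not followed by UCCA. In all, 31 sites were listed in every library, 17 of them Type I, and the 5 sites were chosen by their methylation levels and coverage: each passed the listing filter in every library and had no called change of level along the gradient in earlier results of these data. The genes held 2 more listed sites, which were not listed in every library and are described separately.

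HEK293T is a human embryonic kidney cell line, here of wildtype genotype. Its lysate, prepared with cycloheximide, was spun through a sucrose gradient, and the poly(A)-selected RNA of 6 pooled fractions was treated with bisulfite. From light to dense they were free RNA, which carries no ribosome, the small subunit fraction, the large subunit fraction, monosomes (1 ribosome), light polysomes (2 to 5 ribosomes) and heavy polysomes (over 5 ribosomes). Bisulfite turns unmethylated cytosine into uracil, read as T, and leaves 5-methylcytosine (m5C), read as C, so the methylation level of a site is the percentage of its C and T reads that carry C. Each fraction was 1 library from 1 gradient with no replicate, so every interval and test below covers counting error alone and compares those libraries, not the conditions. Summed over the 5 sites the libraries held 744, 3301, 2169, 1456, 3620 and 2476 reads from free RNA to heavy polysomes, most of them at NT5DC2.

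m5C is placed on mRNA by methyltransferases of the NSUN family. NSUN2, which also methylates tRNAs, acts at Type I sites, which tend to precede a G-rich triplet at the base of a hairpin. NSUN6 acts at Type II sites, which precede UCCA. Type I here means only that UCCA did not follow, so it also holds sites such as that of the mitochondrial rRNA gene MT-RNR1. Which enzyme methylated a given site was not tested. ALYREF and YBX1 are proteins known to bind m5C in mRNA. The position of an mRNA in a gradient reflects how many ribosomes it carries. The reads at a site in a fraction depend on where its transcript sat, but also on the depth and scaling of each library. The level says how much of the RNA read at the site was methylated there.

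The contexts of the 5 sites are shown because they hold what the sites have in common and where they differ. Each is the 21 nt of the spliced transcript around the site, read from GRCh37 and written in DNA letters, with the methylated C and the triplet after it in capitals.

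NT5DC2: tcagaaaactCGATgagaagg
B9D1: tgtccgttctCAGGgctttgt
FUOM: gatgctgaagCAGGgtctcgg
SAMD11: ctgacttcagCAGCccacagc
GPR137: tgggcttcttCCGGgtgcacc

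B9D1 and FUOM shared the triplet AGG, which followed 72 of the 352 Type I sites (20.5%). GPR137 was followed by CGG (15 sites, 4.26%), SAMD11 by AGC (9 sites, 2.56%) and NT5DC2 by GAT (2 sites, 0.568%). So 3 of the 5 had at least 2 G among the next 3 bases, as did 223 of all Type I sites (63.4%). The methylated C was paired in the predicted minimum-energy fold of 30 nt on either side at 3 of the 5 sites, against 55.4% of Type I sites. With 20 and 40 nt on either side it was paired at 2 and 4 of them. FUOM was paired to a downstream base in all 3 windows, SAMD11 was paired in all 3 but not to the same side, and the other genes switched between paired and unpaired. The context and folds of FUOM span an exon junction and hold for the spliced transcript alone.

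The sites lay in different parts of their transcripts, with positions on GRCh37. NT5DC2 (ENSG00000168268), which encodes a protein of the 5′-nucleotidase domain family, was methylated on chromosome 3, minus strand, at 52561376 (window chr3:52561366-52561386), in coding sequence (CDS), at the third base of codon 351 of 557 in exon 10. B9D1 (ENSG00000108641), which encodes a B9-domain protein of the transition zone at the base of the primary cilium, was methylated on chromosome 17, minus strand, at 19246757 (window chr17:19246747-19246767), at the first base of codon 164 of 204 in the last exon of the canonical transcript. Of 6 protein-coding transcripts that hold the B9D1 site, 2 had it in the CDS and 4 in the 3′ UTR. GPR137 (ENSG00000173264), which encodes an orphan multipass membrane protein, was methylated on chromosome 11, plus strand, at 64055913 (window chr11:64055903-64055923), at the third base of codon 295 of 396 in exon 5.

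The other two were outside coding sequence. FUOM (ENSG00000148803) encodes fucose mutarotase, which interconverts the anomers of fucose. Its m5C on chromosome 10, minus strand, at 135169000 fell in the 3′ UTR of transcript ENST00000368552, at nucleotide 10 of the last exon, and in an intron of the canonical transcript ENST00000278025. Reads there therefore come from the longer last exon or from unspliced RNA, and these were not told apart. SAMD11 (ENSG00000187634) encodes a sterile alpha motif protein. Its m5C on chromosome 1, plus strand, at 879855 (window chr1:879845-879865) fell in the 3′ UTR, 99 nt from the end of the transcript, where the 3′ end of NOC2L overlaps it on the opposite strand. The libraries were made with a directional kit and mapped by strand.

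Taken over the reads of all fractions, the methylation levels of the 5 sites spanned a wide range. NT5DC2 was methylated at 14.5% (95% Wilson interval 13.9% to 15.2%), FUOM at 20.8% (17.5% to 24.4%), B9D1 at 27.7% (24.9% to 30.7%), SAMD11 at 36.7% (31.4% to 42.3%) and GPR137 at 50.1% (45.6% to 54.7%). None of these intervals overlapped its neighbour. In single libraries the complete order held in 3 of the 6, NT5DC2 was the lowest in 6 and GPR137 was the highest in 5.

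NT5DC2 was the deepest of the 5 sites and the one whose level varied least. Of 394 reads in free RNA 12.2% carried C (9.31% to 15.8%), of 3073 with the small subunit 15.7% (14.4% to 16.98%) and of 1998 with the large subunit 13.4% (12.0% to 14.98%). Of 1219 monosome reads 13.6% did (11.8% to 15.7%), of 2955 light polysome reads 15.6% (14.3% to 16.95%) and of 1925 heavy polysome reads 13.1% (11.7% to 14.7%). The small subunit and light polysome libraries stood slightly above the rest, and all 6 levels lay within 3.47 percentage points. Free minus heavy polysome was -0.908 points, with an interval of -4.18 to 2.97.

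B9D1 was covered by fewer reads in the subunit fractions than at either end. Of 147 reads in free RNA 21.8% carried C (15.9% to 29.1%), of 45 with the small subunit 35.6% (23.2% to 50.2%) and of 43 with the large subunit 23.3% (13.2% to 37.7%). Of 79 monosome reads 27.8% did (19.2% to 38.6%), of 243 light polysome reads 30.9% (25.4% to 36.9%) and of 352 heavy polysome reads 27.6% (23.2% to 32.5%). The levels spread over 13.8 points and the free library was the lowest. Free minus heavy polysome was -5.79 points (-13.5 to 2.78).

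FUOM ranged from 16.4% of 214 reads in light polysomes (12.0% to 21.9%) to 32.7% of 49 reads with the small subunit (21.2% to 46.6%). It stood at 30.4% of 23 reads with the large subunit (15.6% to 50.9%), 24.3% of 74 heavy polysome reads (16.0% to 35.2%), 20.9% of 67 monosome reads (12.9% to 32.1%) and 19.4% of 108 reads in free RNA (13.1% to 27.9%). Both subunit libraries were the highest, on the fewest reads. Free minus heavy polysome was -4.88 points (-17.5 to 7.01).

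SAMD11 had the fewest reads of all 31 sites listed in every library, 297 in total. Of 67 reads in free RNA 37.3% carried C (26.7% to 49.3%), of 24 with the small subunit 58.3% (38.8% to 75.5%) and of 43 with the large subunit 37.2% (24.4% to 52.1%). Of 28 monosome reads 28.6% did (15.3% to 47.1%), of 78 light polysome reads 29.5% (20.5% to 40.4%) and of 57 heavy polysome reads 40.4% (28.6% to 53.3%). The range of 29.8 points was set by the small subunit library, and without it the range was 11.8 points. Free minus heavy polysome was -3.04 points (-19.8 to 13.7).

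GPR137 was close to equal shares of C and T in 5 libraries. Of 28 reads in free RNA 46.4% carried C (29.5% to 64.2%), of 110 with the small subunit 44.5% (35.6% to 53.9%) and of 63 monosome reads 52.4% (40.3% to 64.2%). Of 130 light polysome reads 47.7% did (39.3% to 56.2%) and of 68 heavy polysome reads 48.5% (37.1% to 60.2%). The large subunit library was higher, at 66.1% of 62 reads (53.7% to 76.7%), and its interval did not hold the pooled level. Free minus heavy polysome was -2.10 points (-22.6 to 19.0).

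**Figure D1:**
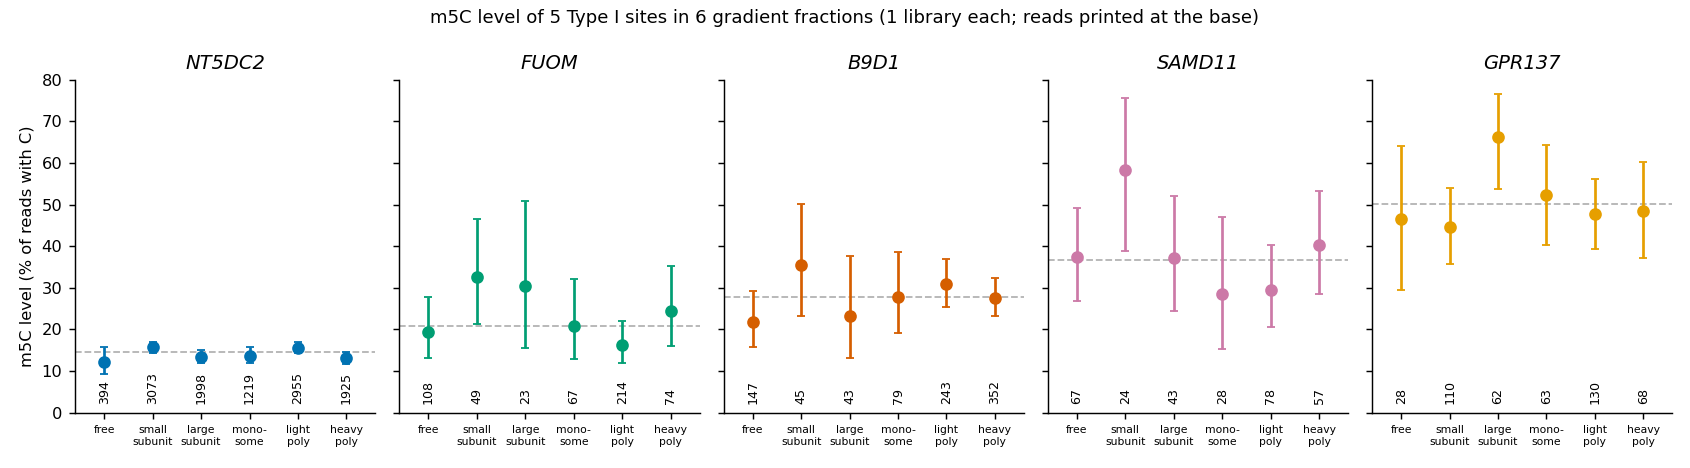
Methylation level (y axis, percent of C and T reads that carried C) of each site in the 6 fractions (x axis, light to dense), 1 library each. Points are levels, bars are 95% Wilson intervals, the dashed line is the level over all reads of the site, and the number of reads stands at the base; NT5DC2 stays between 12.2% and 15.7%, while the bars of SAMD11 reach from 15.3% to 75.5%.

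At each of the 5 sites, all 15 pairs of fractions had Wilson intervals that overlapped. The level over all reads lay inside the interval of 6 of 6 fractions at NT5DC2 and B9D1 and of 5 of 6 at FUOM, SAMD11 and GPR137. In all 5 the level was lower in the free than in the heavy polysome library, by differences whose intervals all held 0. With the 3 lightest libraries summed against both polysome libraries the difference turned at FUOM (6.04 points), SAMD11 (6.97 points) and GPR137 (3.52 points), so the common direction rests on the end libraries. The highest level was in the small subunit library at 4 of the 5, and in the large subunit library at GPR137. Among the other 26 sites listed in every library, 7 (26.9%) were highest in the small subunit library. The lowest level was never in the heavy polysome library at the 5 sites, and it was there at 14 of the other 26 (53.8%). Since the sites were chosen on these levels, the counts describe the choice and nothing is read from them.

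The same holds for the tests along the gradient, which were run over all sites. A trend, up or down, from free RNA to heavy polysomes was called at 25 of 79 sites listed in at least 5 libraries (31.6%; Cochran-Armitage test, adjusted p under 0.05) and at 0 of the 5. A difference among fractions of any shape was called at 29.1% of the 79 sites (chi-square test) and at 0 of the 5. A difference between the free and heavy polysome libraries was called at 15.7% of 51 sites (Fisher's exact test) and at 0 of the 5. At an unadjusted p under 0.05 the numbers were 0, 1 and 0. The 1 was NT5DC2 (chi-square test, adjusted p = 0.0594), which had the narrowest range of the 5 but by far the most reads, and it passed the threshold when only the 31 sites listed in every library were tested (adjusted p = 0.0415) and with at least 50 reads per listing (adjusted p = 0.0406). At this site alone the reads could show differences of a few points.

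The absence of a call was thus not evidence of equal levels at the 4 shallow sites. The fitted slope per step along the gradient had a 95% interval of -0.569 to 0.257 points at NT5DC2, -0.684 to 2.50 at B9D1, -2.75 to 1.12 at FUOM, -4.28 to 1.65 at SAMD11 and -2.90 to 2.92 at GPR137. By range in points NT5DC2 varied little, its range being the second smallest of 31, with a range of 3.06 points (10.0% to 13.1%) at EIF2S3, a translation initiation factor subunit, the Type I site outside the 5 that varied least. The ranges of the others ranked 19 (B9D1), 22 (FUOM), 25 (GPR137) and 30 (SAMD11) from the smallest. The median range was 16.3 points over the 5 and 11.5 over the other 26 sites. Measured against counting error the order was the other way, with a median chi-square per degree of freedom of 1.68 over the 5 and 2.68 over the other 26. By that measure B9D1 ranked 3, SAMD11 6, GPR137 8, FUOM 9 and NT5DC2 19 of 31 from the smallest. NT5DC2 thus ranked low in points and the other 4 ranked low relative to counting error. For a given difference in level the chi-square grows with the number of reads. From the fewest reads, SAMD11 ranked 1, GPR137 3, FUOM 5 and B9D1 8 of the 31, so their low chi-square does not show steady levels. Across the 31 sites the range went down with the number of reads (Spearman's rho -0.518, a description of sites that share the same 6 libraries), and 4 of the 5 were under the median of 2122 reads. Nor were sites with neither call rare, since of the 12 other Type I sites listed in every library 5 had a trend, 6 differed among fractions and 4 had neither call.

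**Figure D2:**
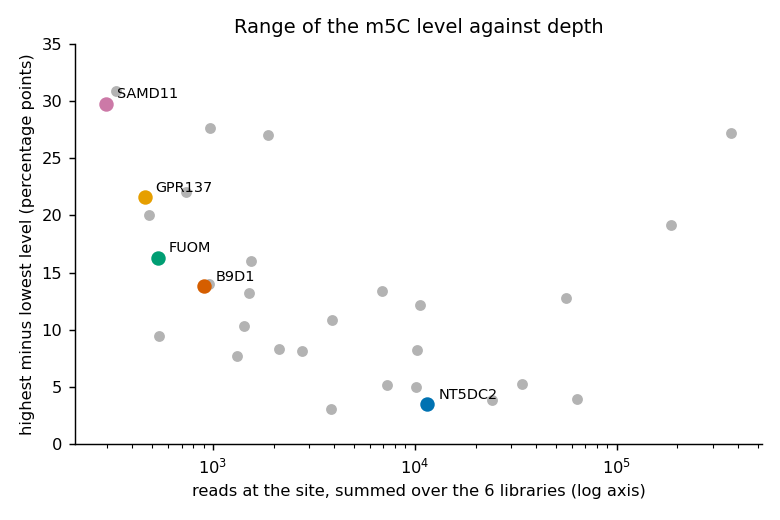
Highest minus lowest level over the 6 libraries (y axis, percentage points) against the reads at the site summed over the libraries (x axis, log scale) for the 31 sites listed in every library. Each point is a site and the 5 named sites are coloured; 4 of them sit among the shallow sites with ranges of 13.8 to 29.8 points, and NT5DC2, with 11564 reads, has a range of 3.47 points.

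The listing filter, which sets the choice, kept levels of 10% or more and 20 or more reads. The published calling had further rules, on the number of C reads, on poorly converted reads and genes and on a binomial test. Just inside it were NT5DC2 in the free library by level (12.2%) and FUOM in the large subunit library (23 reads) and SAMD11 in the small subunit library (24 reads) by coverage. Just outside were 28 Type I sites listed in 5 libraries. The nearest of these by level were ATP6V0E2, a subunit of the vacuolar proton pump, with 10.1% to 15.5% and no listing in the large subunit library, and RCN1, a calcium-binding protein of the endoplasmic reticulum, with 10.4% to 18.1% and no listing in the free library.

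Coverage shifted along the gradient in a way that differed between the genes. The stated criteria of choice did not name these shifts, but the minimum of 20 reads and the lack of a called change both depend on coverage. The choice was also made with earlier results of these data known, so its independence from the shifts is not shown. Reads at NT5DC2 went from 394 in the free to 1925 in the heavy polysome library, at B9D1 from 147 to 352 and at GPR137 from 28 to 68, while at FUOM they went from 108 to 74 and at SAMD11 from 67 to 57. The heavy polysome to free ratio of one gene over that of another needs no scaling of the libraries, since library depth cancels in it.

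Between the 2 end libraries the ratio was highest at NT5DC2, lower at GPR137 and B9D1 and lowest at SAMD11 and FUOM. The ratio at NT5DC2 was 7.13 times that at FUOM (95% interval 5.20 to 9.77), 5.74 times that at SAMD11 (3.97 to 8.31), 2.04 times that at B9D1 (1.64 to 2.55) and 2.01 times that at GPR137 (1.28 to 3.17). The ratio at GPR137 was 3.54 times that at FUOM (2.09 to 6.02) and 2.86 times that at SAMD11 (1.62 to 5.02), and the ratio at B9D1 was 3.495 times (2.46 to 4.97) and 2.82 times (1.88 to 4.21) that at the same genes. The pairs that were not separated were GPR137 and B9D1, with 1.01 (0.627 to 1.64), and SAMD11 and FUOM, with 1.24 (0.783 to 1.97). By Fisher's exact test of the reads, adjusted over all 465 pairs of the 31 sites, 8 of the 10 pairs differed, and so did 90.3% of all pairs, so differences of this kind were common among the sites and not particular to these genes. The order depends on the choice of the end libraries. As mean scaled coverage of both polysome fractions over that of the 3 lightest, the ratio was 2.91 at B9D1, 1.62 at FUOM, 1.32 at GPR137, 1.25 at NT5DC2 and 1.09 at SAMD11, which put NT5DC2 below FUOM, and these differences were not tested.

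Scaled by the median of ratios over the 31 sites, coverage was 3.88 times as high in the heavy polysome as in the free library at NT5DC2 (3.48 to 4.33), 1.93 times at GPR137 (1.22 to 3.11) and 1.90 times at B9D1 (1.56 to 2.32). These intervals cover counting error and not the scaling. Scaling by total reads, meaning reads summed over these 31 sites and not library depth, gave 61.3, 30.5 and 30.05 times in the same order. Total reads without MT-RNR1 gave 31.2, 15.5 and 15.3 times. Under the median of ratios, coverage in the heavy polysome library was 0.675 times that in the free library at SAMD11 (0.466 to 0.975). At FUOM it was 0.544 times (0.399 to 0.738). The direction at SAMD11 and FUOM turned with scaling by total reads (10.7 and 8.60) and by total reads without MT-RNR1 (5.43 and 4.37). It also turned when the mean of both polysome fractions was set against the mean of the 3 lightest (1.09 and 1.62). Summed instead, the 3 lightest held 51.3% of the scaled coverage of SAMD11 and the polysomes 37.3%. At FUOM these sums were 40.3% and 43.5%. Scaling by total reads lowered the heavy polysome to free library factor by a log2 value of -3.98, and MT-RNR1, RPSA and RPS2 held 87.3% of the free reads at these sites and 33.8% of the heavy polysome ones. Over the 31 sites the scaled ratio ran from 0.0136 at MT-RNR1, the mitochondrial 12S rRNA gene, to 39.0 at MARCKSL1, which encodes a MARCKS-like actin-binding protein, with a median of 0.851, and the 5 genes ranked 7 (NT5DC2), 10 (GPR137), 11 (B9D1), 17 (SAMD11) and 20 (FUOM) from the highest.

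**Figure D3:**
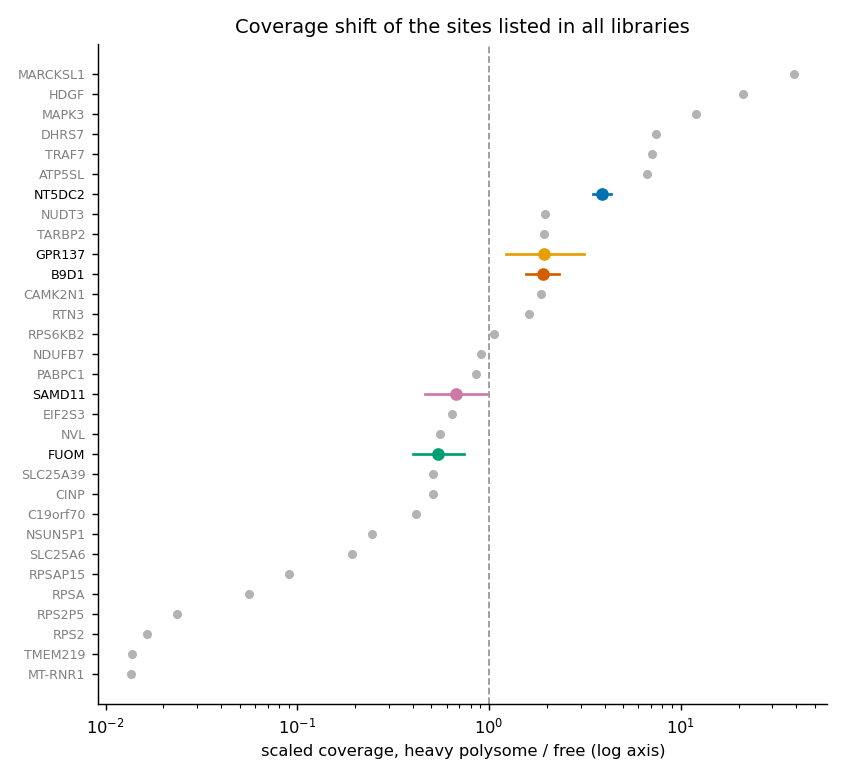
Scaled coverage in the heavy polysome library over that in the free library (x axis, log scale) for the 31 sites listed in every library, named by gene and ordered by the ratio. Points are ratios, and bars, drawn for the 5 named sites, are 95% counting intervals; NT5DC2, GPR137 and B9D1 lie above 1 (dashed line) and SAMD11 and FUOM below it under this scaling.

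The profiles over all 6 fractions are given as a description. As a share of its scaled coverage, NT5DC2 had 5.17% in the free fraction and between 14.4% and 21.7% in each of the others, with the most in the large subunit fraction. GPR137 was spread most evenly, from 9.11% in the free fraction to 20.6% in light polysomes. B9D1 was concentrated at the ends, with 21.8% in the free fraction, 3.28% with the small subunit, 5.29% with the large subunit and 41.5% in heavy polysomes. FUOM was highest in the free fraction (28.8%) and in light polysomes (27.8%), with 5.09% with the large subunit. SAMD11 had 30.1% in the free fraction, 5.28% with the small subunit and 20.3% in heavy polysomes. Thus B9D1, FUOM and SAMD11 shared a low share with the small subunit (3.28% to 6.42%), where NT5DC2 and GPR137 had 19.8% and 17.5%. Shares depend on the scaling of the libraries.

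**Figure D4:**
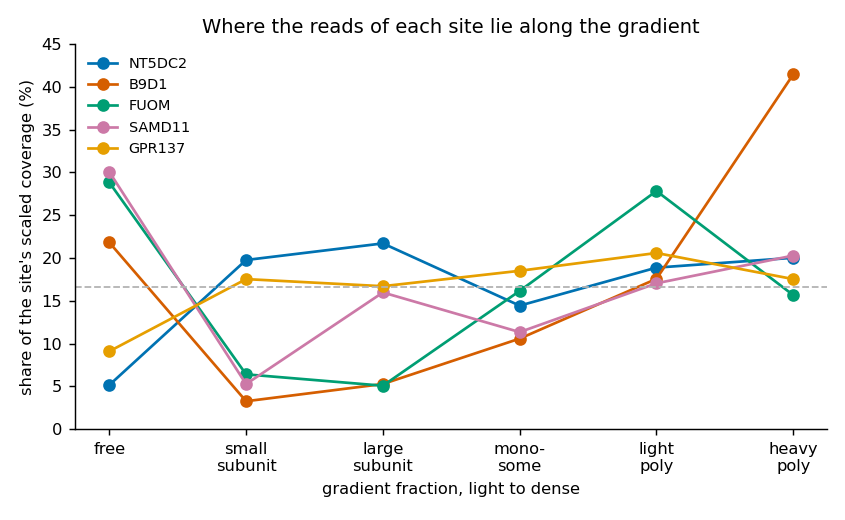
Share of each site's scaled coverage (y axis, percent, adding up to 100 over the fractions) in the 6 fractions (x axis, light to dense), 1 library each. Each line is a gene, the dashed line is an even spread, and B9D1 reaches 41.5% in heavy polysomes while FUOM and SAMD11 are highest in the free fraction under the median-of-ratios scaling.

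Likeness to other sites was measured by the root-mean-square difference over the 6 libraries, against the 26 other sites listed in all of them. By level the closest to NT5DC2 was RPS2P5, a pseudogene of the small-subunit ribosomal protein gene RPS2 (1.66 points), the closest to B9D1 was NSUN5P1, a pseudogene of NSUN5 (4.81 points), and the closest to FUOM was HDGF, a growth factor gene (3.80 points). TRAF7, an E3 ubiquitin ligase gene, was the closest to both SAMD11 (11.1 points) and GPR137 (11.2 points). How the counting split reads between a pseudogene and its near-identical parent was not tested. By centred log2 coverage the closest were CAMK2N1, a CaM kinase II inhibitor gene, to NT5DC2 (0.505), NDUFB7, a complex I subunit gene, to B9D1 (0.618), C19orf70, a cristae-organising protein gene, to FUOM (0.341), NVL, a nuclear VCP-like ATPase gene, to SAMD11 (0.603) and TARBP2, a dsRNA-binding partner of Dicer, to GPR137 (0.365). The scaled heavy polysome to free ratios of these closest sites by coverage were, in that order, 1.87, 0.9075, 0.417, 0.557 and 1.94. At NDUFB7 the ratio was thus below 1, against 1.90 at B9D1. Among the 5 themselves NT5DC2 and GPR137 had the most alike coverage (0.402) and the least alike levels (37.8 points).

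Genes related to the 5 were not listed. Of 13 m5C enzymes and readers, 16 further ciliary transition zone genes, 8 further genes of fucose metabolism and 6 further genes of the NT5DC and GPR137 families, 0 had a listed site in any library. A gene can be missing from the lists for want of reads, because no site reached 10% or because of another rule of the authors' calling. The lists thus give no level for these genes.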

How the data were processed

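Poly(A)-selected RNA of 6 gradient fractions of HEK293T cells was profiled by bisulfite sequencing, with 1 library per fraction grouped by the sample labels. Per the labels and the published methods, reads were trimmed by the authors with cutadapt 1.13 and Trimmomatic 0.36 and mapped by strand to the converted GRCh37 genome with HISAT2 2.10 and the rest to the converted transcriptome with Bowtie2 2.2.9, and poorly converted reads and genes were dropped. Deposited coverage is a count of C and T reads, not scaled, the deposited methylation level is the fraction of them with C, and the deposited P-value, a binomial test given the conversion of each gene, was not used. The lists hold called sites alone, so a level under 10% or under 20 reads is not seen, which narrows any fall at low levels. Listed sites summed to between 50416 and 764521 reads per library. Reads carry no molecular identifiers.

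C reads were level times coverage, whole at all 1222 listings (tolerance 1e-06 of the coverage). Sites were placed in GENCODE 44 transcripts lifted to GRCh37, canonical first. Tests were the Cochran-Armitage trend (exact conditional form where an expected count was under 5, as at FUOM), the chi-square test (lowest expected count 4.77, at FUOM) and two-sided Fisher's exact test, with Benjamini-Hochberg adjustment over all sites or pairs tested and a threshold of 0.05. Differences of levels carry Newcombe intervals, and coverage ratios exact conditional or, between genes, log-normal ones. Coverage was scaled by the median of ratios to the geometric mean of each site. The tests were run on simulated data first. Genes named beside the 5 were the most alike site by each measure, the least varying other Type I site, the 2 Type I sites nearest to the filter and any overlapping gene; genes at the ends of the coverage range were named after their values were seen. The sites and gene lists were chosen with earlier results of these data known. Python 3.11.15, numpy 2.4.6, scipy 1.17.1, pysam 0.24.0, matplotlib 3.10.9 and RNAfold 2.7.2 were used.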

Additional observations from a re-analysis of the deposited data

Results flagged for a closer look

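Signals at sites outside the comparisons were found in 2 of the 5 genes. GPR137 carried a second Type I site on chromosome 11, plus strand, at 64052692, 3221 nt upstream on the genome, in the 5′ UTR of 2 transcripts with an alternative first exon and outside the canonical transcript. Its level was 12.5% of 40 large subunit reads (Wilson interval 5.46% to 26.1%), 11.3% of 71 light polysome reads (5.82% to 20.7%) and 15.6% of 45 heavy polysome reads (7.75% to 28.8%), where a count of 3 reads would be 7.50%, 4.23% and 6.67%. All 3 levels were under those of the coding site of the gene in the same libraries (66.1%, 47.7% and 48.5%). SAMD11 held a Type II site on chromosome 1, plus strand, at 876600, in the CDS at the third base of codon 424, listed in light polysomes alone, with 11.2% (6.79% to 17.9%, 125 reads) against 2.40% for 3 reads. The contexts differ in what follows the C, shown in capitals as above.

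GPR137 second site: ccgcccgcctCGGGggacacc
SAMD11 second site: acctgccctcCTCCacggcag

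The lower bounds of all 4 intervals lay under the 10% filter. Whether the sites were missing from the other libraries for their level, their coverage or another calling rule was not tested.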

How the results depend on the processing

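Where they could be tested, the tests along the gradient called 0 of the 5 sites under every alternative, except the chi-square test at NT5DC2 with sites listed in all 6 libraries or with at least 50 reads. The number of sites tested changed with the setting, so each count is given with it. Sites with a trend numbered 11 of 31 with sites listed in all 6 libraries and 12 of 98 without the heavy polysome library, against 25 of 79. Sites that differed among fractions numbered 15 of 98 without the heavy polysome library, against 23 of 79. Sites differing between ends numbered 26 of 178 with summed fractions and 18 of 90 for monosome against heavy polysome, against 8 of 51. Pairs with different coverage shifts numbered 1089 of 1275 over sites listed in both end libraries, against 420 of 465, and 8 of the 10 pairs of the 5 genes were called in both. The heavy polysome to free coverage ratio moved with the scaling. With total reads at the 31 sites listed in all 6 libraries it was 61.3 (NT5DC2), 30.05 (B9D1) and 30.5 (GPR137), and reversed at FUOM (8.60) and SAMD11 (10.7). Without MT-RNR1, an alternative added after the data were seen, it was 31.2, 15.3, 15.5, 4.37 and 5.43 in the same order. As mean scaled coverage of polysomes against the 3 lightest fractions it was 1.25 (NT5DC2) and 2.91 (B9D1), and reversed at FUOM (1.62) and SAMD11 (1.09). Summed instead of averaged, the polysomes held 37.3% and the 3 lightest 51.3% at SAMD11, against 43.5% and 40.3% at FUOM. Without the 5 sites in the scaling NT5DC2 was at 4.41. The cause was not tested. Predicted pairing at 3 sites became 2 and 4 with other windows. Depth limits the levels of SAMD11, GPR137, FUOM and B9D1 more than that of NT5DC2, as their intervals show.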

Other observations

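By canonical transcript where it holds the site, the 3 coding sites had scaled heavy polysome to free ratios above 1 (1.90 to 3.88) and both 3′ UTR sites below 1 (0.544 and 0.675). All 5 were above 1 with total reads over the sites listed in every library, and with those reads without MT-RNR1. They were also above 1 as mean scaled coverage of both polysome fractions over the mean of the 3 lightest. There FUOM (1.62) was above NT5DC2 (1.25) and GPR137 (1.32). Summed instead of averaged, scaled coverage was lower in the polysomes than in the 3 lightest at NT5DC2, GPR137 and SAMD11. At FUOM and B9D1 the sum was higher in the polysomes. B9D1 lies in the 3′ UTR of 4 of the 6 protein-coding transcripts that hold its site. Among the other sites listed in every library the split between coding and 3′ UTR sites was not seen, with 7 of 15 CDS sites and 3 of 6 3′ UTR sites above 1. Distance from the site to the 3′ end of its transcript was 704 nt at NT5DC2, 604 nt at GPR137, 336 nt at FUOM, 269 nt at B9D1 and 99 nt at SAMD11. Over the 27 sites in coding transcripts this distance and the ratio had a Spearman's rho of 0.355, and 0.412 over 22 sites without the 5 genes, as a description of sites that share the same libraries. Length of the coding sequence had a rho of 0.0864 with the ratio over the 27 sites.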
